A study of Rattus norvegicus with 4 samples.

Results

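The genes described here encode the axonal microtubule cytoskeleton and its transport motors: tubulins, microtubule-associated proteins, stathmins, collapsin response mediator proteins, kinesins, cytoplasmic dynein and dynactin subunits, and the spectrins and ankyrins of the membrane skeleton. They were chosen by gene symbol, from the probes that the platform annotation pairs with a single symbol. The rule found 118 probes of 89 genes, among 16677 single-symbol probes of 12111 genes. Of these, 107 probes of 82 genes could be read, and 7 genes (Dync1i2, Dync1li2, Dynll1, Kif20a, Kif20b, Kif27 and Tuba4a) have their only probe in a stretch of the table where names and values could not be paired.

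The study profiled rat vestibular ganglion neurons collected by laser capture microdissection after immunofluorescence for calretinin, a calcium-binding protein. The calretinin-positive pool represents calyceal afferents, whose endings wrap the hair cell, and the calretinin-negative pool dimorphic and bouton afferents. Pooled total RNA was hybridised to 1-colour (Cy5) arrays, with 2 arrays labelled calretinin-positive and 2 labelled calretinin-negative; these groups come from the titles, because the free-text entry of all 4 arrays names positive cells. All came from stained ganglia with no treatment or genotype named, and the sources used here do not give the strain, age or number of the rats.

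Microtubules are polar polymers of alpha- and beta-tubulin that run along the axon and serve as tracks for motors. Most kinesins walk towards the plus end, which points to the axon terminal, while cytoplasmic dynein with its activator dynactin walks back towards the cell body. Microtubule-associated proteins stabilise the tracks, stathmins bind free tubulin and destabilise them, and spectrins with ankyrins form the lattice under the axonal membrane. Vestibular calyx afferents have thick, fast-conducting axons and bouton afferents thin ones.

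Values are the deposited intensities, on a linear scale on which the median probe of each array lay between 0.9896 and 0.992. A probe was tested if its mean level over the 4 arrays was at least 0.456, the 40th percentile of all probes, and log2 changes are given as positive minus negative. Of the 82 genes read, 65 were tested on their brightest probe and 17 were too dim on every probe: 11 kinesins (Kif1b, Kif5b, Kif5c, Kif6, Kif11, Kif12, Kif13a, Kif13b, Kif18a, Kif18b and Kif23), Dync1li1, Dync2li1, Dynlt5, Tubgcp2, Tubb2a and Dpysl4. Precision is limited by having 2 arrays a group. Nothing says that these came from separate animals, so a p-value here reflects array-to-array spread that may be purely technical, and the smallest p of an exact two-sided permutation test at this size is 0.333.

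As a group, these genes showed no excess of differences: 43 of the 65 tested genes (66.2%) were called at an adjusted p of 0.05 in limma's test with Benjamini-Hochberg adjustment, against 66.6% of all 8172 named genes tested in the same way. Of the 43, 28 rose and 15 fell in the arrays labelled positive (43.1% and 23.1% of those tested), where 45.3% and 21.3% of all named genes did. At least 2-fold changes were called for 4 genes higher and 4 lower, or 6.15% each, against 7.27% and 6.0% of all named genes. One of the 4 higher, Kif4a, had a negative group mean below the lowest level tested, so its fold is not measured, and 3 had both group means above that level. By probe, 53 of 79 tested probes were called (67.1%), against 64.2% of all tested probes. The groups did not overlap in 55 of the 65 members and in 6862 of the 8172 named genes. A lack of overlap therefore sets none of the genes below apart.

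The direction of small changes depended on how the arrays were scaled. After quantile normalization 18 members rose and 18 fell, and after cyclic loess normalization 19 rose and 20 fell, in place of 28 and 15. The median log2 change of the 65 members was 0.17 as deposited, -0.03 after quantile and -0.07 after loess normalization. The median of all tested probes was 0.11, 0.02 and -0.01 in the same order, and among probes with a mean log2 level above 4, where 29 members lay, it was 0.23 as deposited while that of the members was 0.18. A call is therefore called steady below only where it kept its direction under all 3 scalings. This held for 18 genes that rose, Kif4a among them, and for all 15 that fell (27.7% and 23.1% of those tested), where it held for 32.4% and 20.9% of all named genes.

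**Figure D1:**
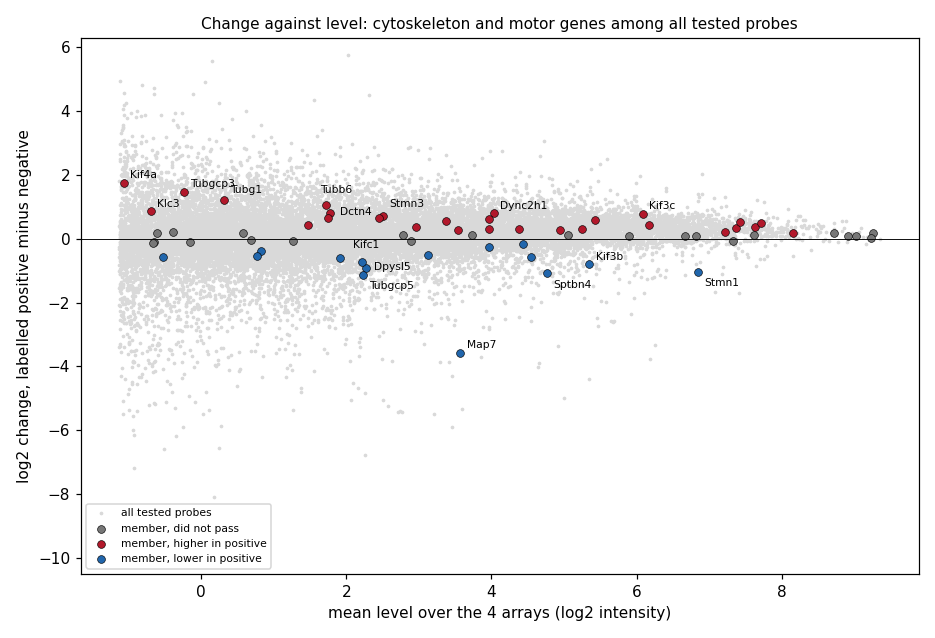
Log2 change (positive minus negative, vertical axis) against the mean log2 intensity over the 4 arrays (horizontal axis) for all tested probes in grey and for the brightest probe of the 65 tested members in colour. Map7 lies far below the other members at -3.57, and most bright members lie slightly above 0, as do bright probes in general.

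The promoters of 3 members are shown because these genes represent both directions of change. Map7 fell most and Stmn1 also fell at least 2-fold. Tubgcp3 rose most among members whose group means were both above the lowest level tested. Each is the 250 bases before the transcription start in RefSeq (build GRCr8), 5′ to 3′ on the strand of the gene, with matches to GGGCGG (the GC box), CCAAT and TATAAA on either strand in capitals. Map7 lies at chr1:16729877-16730126 (+ strand, the first of 2 starts listed), Stmn1 at chr5:151964929-151965178 (+) and Tubgcp3 at chr16:83553735-83553984 (+).
Map7: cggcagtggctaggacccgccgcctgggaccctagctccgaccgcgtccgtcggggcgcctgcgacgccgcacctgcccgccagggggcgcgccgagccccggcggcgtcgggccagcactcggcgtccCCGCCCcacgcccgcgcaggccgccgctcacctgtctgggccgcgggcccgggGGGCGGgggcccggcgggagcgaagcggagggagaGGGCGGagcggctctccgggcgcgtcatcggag
Stmn1: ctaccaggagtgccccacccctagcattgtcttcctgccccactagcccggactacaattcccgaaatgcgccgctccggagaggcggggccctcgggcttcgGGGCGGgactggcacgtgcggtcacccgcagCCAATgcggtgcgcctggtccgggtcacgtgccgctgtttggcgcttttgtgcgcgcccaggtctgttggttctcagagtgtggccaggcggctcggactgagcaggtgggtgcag
Tubgcp3: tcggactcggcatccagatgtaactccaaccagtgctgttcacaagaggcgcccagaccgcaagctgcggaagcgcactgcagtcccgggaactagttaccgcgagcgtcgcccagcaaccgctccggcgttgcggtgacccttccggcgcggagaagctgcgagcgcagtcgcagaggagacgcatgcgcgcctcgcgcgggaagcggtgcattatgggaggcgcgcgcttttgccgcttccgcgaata
The Map7 window was 82.4% G and C and held 3 GC boxes, that of Stmn1 (67.6%) held 1 GC box and 1 CCAAT, and that of Tubgcp3 (65.6%) held none of the motifs. Each motif was searched on both strands and counted separately. A GC box was present in 40 of the 67 member promoters listed (59.7%) and in 54.6% of the 9123 promoters of genes read on the array, CCAAT in 41.8% and 34.8%, and TATAAA in 14.9% and 8.31%. These are matches of letters and say nothing of binding.

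**Figure D2:**
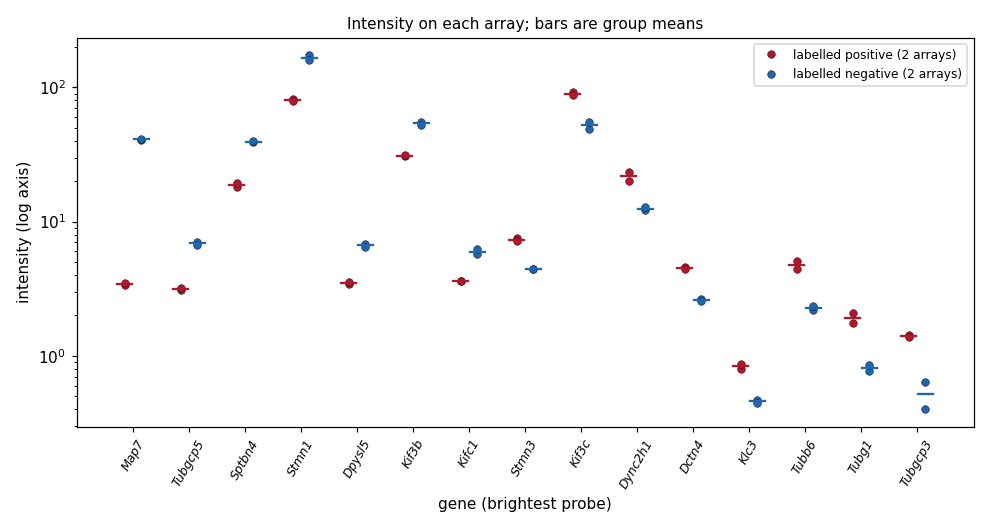
Intensity on each array (log axis) for 15 members. Shown are all members with a steady call, a log2 change of at least 0.7 either way, and both group means above the lowest level tested. Red points are the 2 arrays labelled positive, blue points the 2 labelled negative, and bars are group means. In 7 genes, from Map7 to Kifc1, both positive arrays lie below both negative arrays, and in 8 they lie above. The choice by call and size all but fixed this separation.

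Among the structural microtubule-associated proteins, Map7, which binds microtubules and recruits kinesin-1 to them, showed by far the widest gap of all 65 tested members. Its intensity was 3.39 and 3.52 on the arrays labelled positive and 40.7 and 41.3 on those labelled negative. The arrays of each group lay close together and the groups were far apart. Map7 was 11.9-fold lower in the arrays labelled positive (log2 change -3.57 ± 0.07 SE, adjusted p = 8.41e-10, limma), and -3.72 after quantile and -3.74 after loess normalization.

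Map1a and Map6 moved the opposite way and less. Map1a, a large microtubule-binding protein of mature axons and dendrites, had 19.3 and 19.7 against 12.2 and 12.998, a steady rise with a log2 change of 0.63 (adjusted p = 2.79e-05), and its second probe gave 0.56. Map6, which protects microtubules from cold-induced disassembly, had 203 and 209 against 149 and 138 (log2 change 0.52, adjusted p = 0.000184), also steady. A second probe of Map6 had 2.92 and 2.73 against 3.03 and 2.69 and did not pass (log2 change -0.02). Map1s, a short relative of Map1a, had 43.0 and 41.2 against 34.2 and 34.0 (log2 change 0.30, adjusted p = 0.00253), a call lost after quantile and loess normalization (0.06 and 0.08). Mapt, which encodes tau, the classical axonal microtubule-associated protein, had 19.5 and 21.2 against 22.9 and 23.1. The groups did not overlap but were close, and the fall of 0.18 on the log2 scale barely passed (adjusted p = 0.0486), while it was 0.38 after either normalization.

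Map1b, the earliest microtubule-associated protein of growing axons, was read by a pair of probes that differed. The brighter had 453 and 549 against 492 and 441, with groups that overlapped (log2 change 0.10, adjusted p = 0.443). The dimmer had 35.0 and 34.6 against 16.7 and 17.5, a rise with a log2 change of 1.03 (adjusted p = 1.05e-06) that kept its direction under both normalizations.

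Of the 3 stathmins, Stmn1 fell and Stmn3 rose. Stmn1, the founding stathmin, which sequesters tubulin dimers in many cell types, had 81.3 and 78.7 on the arrays labelled positive against 173 and 159 on those labelled negative. The negative arrays stood well above both positive ones, and the gene was 2.07-fold lower in the latter (log2 change -1.05 ± 0.07 SE, adjusted p = 1.93e-06). Stmn3, a neuronal stathmin anchored to Golgi membranes, had 7.54 and 7.12 against 4.43 and 4.45, a steady 1.65-fold rise (adjusted p = 1.37e-05). Stmn2, the neuronal stathmin also known as SCG10, had 33.0 and 34.4 against 29.5 and 26.8 on its brighter probe, a log2 change of 0.26 (adjusted p = 0.01) that became 0.04 and 0.05 after quantile and loess normalization and missed the threshold without the second negative array (0.19, adjusted p = 0.0816). Its dimmer probe had 3.36 and 3.32 against 1.23 and 1.22, a log2 change of 1.45 (adjusted p = 6.89e-07) that was steady.

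Among the collapsin response mediator proteins, cytosolic proteins that act on microtubules in growth cones, Dpysl5 fell. It had 3.46 and 3.56 against 6.84 and 6.48, with no overlap, and a steady log2 change of -0.92 (adjusted p = 3.29e-06). Dpysl2, which carries tubulin dimers to growing ends, had 231 and 218 against 192 and 158, a log2 change of 0.37 (adjusted p = 0.00841) that was lost after quantile and loess normalization (0.11 and 0.07), and without the second negative array (0.23, adjusted p = 0.0667). Crmp1 had 2.33 and 2.38 against 2.39 and 2.55 and did not pass (adjusted p = 0.506), and Dpysl4 was too dim to test. Gap43, a growth cone protein of regrowing axons, again differed by probe. Its brighter probe had 14.5 and 13.3 against 12.8 and 12.8 (log2 change 0.12, adjusted p = 0.171), and its dimmer probe 0.882 and 0.818 against 2.66 and 2.58, a fall of 1.62 on the log2 scale (adjusted p = 1.12e-06).

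The tubulin isotypes did not move together. Of 7 tested alpha- and beta-tubulins 3 rose, 1 fell and 3 did not pass. Tubb6, a beta-tubulin found in many tissues, had 5.09 and 4.403 against 2.20 and 2.36, a 2.08-fold rise (adjusted p = 6.93e-06). Tuba1c had 7.01 and 6.76 against 4.55 and 4.20 (log2 change 0.65, adjusted p = 3.75e-05), and Tuba1a, the main alpha-tubulin of developing neurons, 8.91 and 8.76 against 6.88 and 6.83 (log2 change 0.37, adjusted p = 0.000814). All 3 rises were steady, with groups that did not overlap. Tubb4a, a beta-tubulin of neurons and oligodendrocytes, had 17.7 and 20.7 against 30.3 and 27.1, a steady fall of 0.58 on the log2 scale (adjusted p = 0.000363).

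The remaining tubulins did not pass as deposited or were not tested. Tubb4b had 594 and 623 against 601 and 584 (log2 change 0.04, adjusted p = 0.698), which became a called fall of 0.29 after loess normalization. Tubb5 had 163 and 150 against 165 and 166 (log2 change -0.08, adjusted p = 0.353), and was called lower after quantile and loess normalization (-0.35 and -0.37). Tuba8 had 0.800 and 0.843 against 0.688 and 0.741 (adjusted p = 0.319). Tubb2a was too dim to test, with 0.697 and 0.599 against 0.179 and 0.127 on its brighter probe. Tubulin genes are close copies of each other, and whether these probes tell them apart was not tested.

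Gamma-tubulin, which nucleates new microtubules, and the proteins of its ring complex went in both directions. Tubg1, the gamma-tubulin gene, had 2.08 and 1.75 against 0.766 and 0.863, a 2.35-fold rise (adjusted p = 3.23e-05). Tubgcp3, a core subunit of the ring, had 1.44 and 1.38 against 0.638 and 0.403, with no overlap and a wide spread in the negative arrays (2.77-fold higher, adjusted p = 0.000248); its other probes were too dim to test. Tubgcp5 had 3.08 and 3.21 against 7.10 and 6.75, a 2.20-fold fall (adjusted p = 9.40e-07).

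Tubgcp4 also fell, by 0.38 on the log2 scale, from 2.10 and 1.93 to 1.46 and 1.63 (adjusted p = 0.0094). That call was lost without the first negative array (adjusted p = 0.0558). Tubgcp6 had 7.46 and 7.05 against 7.76 and 7.56 on its brighter probe and did not pass as deposited (adjusted p = 0.339), while quantile and loess normalization called it lower (-0.18 and -0.23). Its dimmer probe had 4.61 and 4.54 against 6.14 and 5.21, a steady fall (log2 change -0.31, adjusted p = 0.0119). The 4 calls on the brightest probes of this class were steady, and Tubgcp2 was too dim to test.

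Kinesins were the largest class, with 29 genes, of which 26 were read and 15 tested: 4 rose, 5 fell and 6 did not pass. The motor subunits of kinesin-2, a plus-end motor of axons and cilia in which Kif3a pairs with Kif3b or Kif3c, diverged. Kif3b had 30.6 and 31.2 on the arrays labelled positive against 55.7 and 52.3 on those labelled negative, a 1.75-fold fall (adjusted p = 6.07e-06). Kif3c had 91.6 and 87.4 against 48.9 and 55.3, a 1.72-fold rise (adjusted p = 1.96e-05). Both calls were steady and neither gene had overlapping groups. Kif3a, the shared partner, had 7.29 and 6.97 against 6.296 and 6.86 and did not pass (log2 change 0.12, adjusted p = 0.187). The second probe of Kif3c was too dim to test, at 0.613 and 0.663 against 0.291 and 0.208.

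Kinesin-1, the main motor of fast axonal transport, is built of heavy chains (Kif5a, Kif5b, Kif5c) and light chains that bind cargo. Kif5a, the neuronal heavy chain, had 112 and 122 against 110 and 108 on its brighter probe and did not pass (log2 change 0.10, adjusted p = 0.246). Its dimmer probe had 13.4 and 13.4 against 6.29 and 6.37, a steady rise with a log2 change of 1.08 (adjusted p = 6.83e-07). Kif5b and Kif5c were too dim to test. Of the 4 light chain genes 3 rose as deposited, 2 of them steadily, where 45.3% of all named genes rose and 32.4% did so steadily. Klc2 had 248 and 254 against 182 and 172 (log2 change 0.51, adjusted p = 0.000211), and its dimmer probe rose too (0.80).

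Klc3 had 0.796 and 0.878 against 0.469 and 0.449, close to the lowest level tested (log2 change 0.87, adjusted p = 0.00389). Klc4 had 83.6 and 84.0 against 62.8 and 60.8 (log2 change 0.44, adjusted p = 0.000294) and lost its call after quantile normalization (0.15), while Klc2 and Klc3 were steady. Klc1 had 615 and 698 against 589 and 566 and did not pass (log2 change 0.18, adjusted p = 0.0955). The positive arrays of Klc1 were both above the negative ones, but they differed from each other by more than the negative pair did, and without the first positive array the gene passed (log2 change 0.28, adjusted p = 0.0341).

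Of 9 kinesins read that are known from cell division, a grouping made after their values were seen, 5 were tested, while Kif11, Kif18a, Kif18b and Kif23 were dim. Of the 5 tested, 4 were called, Kif4a among them, where 66.6% of all named genes were called. Kif4a, which compacts chromosomes, had 0.919 and 0.843 against 0.336 and 0.202; its negative mean is below the lowest level tested and it entered the test only through the positive arrays, so neither a fold nor a p is given. Kifc1, a minus-end motor of the spindle, had 3.64 and 3.62 against 5.74 and 6.24 (log2 change -0.72, adjusted p = 2.15e-05). Kif22, another chromosome-bound kinesin, had 3.71 and 2.80 against 2.43 and 2.38 (log2 change 0.42, adjusted p = 0.0123), and Kif15, a spindle motor, 0.494 and 0.663 against 0.841 and 0.845 (log2 change -0.56, adjusted p = 0.037). Kif2c, which depolymerises microtubules at chromosomes, had 0.530 and 0.691 against 0.638 and 0.679 and did not pass (adjusted p = 0.646). The calls of Kifc1, Kif15 and Kif22 were steady and ran in both directions. Of 8 general markers of dividing cells, Top2a was higher (log2 change 0.96), Ccnb1 and Birc5 were lower (-0.65 and -0.33), 3 did not pass and 2, Mki67 and Bub1, were dim; their summed level was 10.7 to 11.7 in the arrays labelled positive and 11.4 in both labelled negative.

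Other kinesins added small changes. Kifc3, a minus-end kinesin of epithelial cell junctions, had 1.41 and 1.41 against 2.05 and 2.06 (log2 change -0.54, adjusted p = 0.000706), and Kif26b, an unconventional kinesin, 3.50 and 2.67 against 4.67 and 4.67 (-0.61, adjusted p = 0.00115). Both falls were steady. Kifc2, a minus-end kinesin of neurons, had 16.6 and 18.3 against 14.6 and 13.5 (log2 change 0.31, adjusted p = 0.00548) and lost its call after quantile and loess normalization (0.12 and 0.13). Kif1c, Kif2a and Kif16b did not pass as deposited, with log2 changes from 0.08 to 0.19, and Kif1c was called lower after quantile and loess normalization (-0.20 and -0.17).

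Dynein genes belong to dynein-1, the retrograde motor of axons, to dynein-2, which returns cargo from the tips of cilia, or to light chains, some of which are shared. On the brightest probes the largest changes were those of dynein-2 genes. Of the genes named for dynein-1 only Dync1i1 was tested, so the 2 motors were not compared. Dync2h1, its heavy chain, had 23.3 and 20.1 on the arrays labelled positive against 12.1 and 12.8 on those labelled negative, a steady 1.73-fold rise (adjusted p = 2.39e-05). Dynlt2b, a light chain of the same motor, had 4.07 and 4.30 against 2.95 and 2.46, a steady log2 change of 0.64 (adjusted p = 0.000295). Dync2i2, an intermediate chain, went the opposite way, with 7.63 and 7.02 against 10.9 and 10.05 (log2 change -0.52, adjusted p = 0.00023, steady). Dync2i1, its partner chain, had 13.1 and 12.7 against 10.8 and 10.3 (log2 change 0.29, adjusted p = 0.004), which was lost after quantile and loess normalization (0.14 and 0.11). Subunits of this motor therefore did not share a direction.

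For dynein-1, the intermediate chain gene Dync1i1 fell from 17.2 and 16.8 to 14.6 and 13.8 (log2 change -0.26, adjusted p = 0.00705), steadily, and Dync1li1 was too dim to test. Of the light chains, Dynlt3 had 188 and 183 against 149 and 144 (log2 change 0.34, adjusted p = 0.00211), lost after quantile and loess normalization (0.07 and 0.05). Dynll2 had 427 and 477 against 376 and 411 on its brighter probe (log2 change 0.20, adjusted p = 0.0753) and 4.02 and 4.38 against 2.64 and 2.72 on its dimmer one, a steady rise of 0.65. The brighter probe passed without the first positive array (0.28, adjusted p = 0.0349). Dynlt1, Dynlrb1 and Dynlrb2 did not pass, with log2 changes from -0.05 to 0.13.

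Dynactin, the complex that makes dynein processive and links it to cargo, was read by 6 genes, of which 5 rose and none fell as deposited, with a median log2 change of 0.42. That became 3 rises with either normalization and a median of 0.21 and 0.23. Of all named genes 45.3% rose as deposited and 32.4% under all 3 scalings. Dctn4, the p62 subunit at the pointed end, had 4.61 and 4.44 against 2.66 and 2.56, a 1.74-fold rise (adjusted p = 1.19e-05). Dctn2, which encodes dynamitin, the shoulder subunit, had 53.8 and 52.2 against 34.7 and 35.5 (1.51-fold higher, adjusted p = 3.60e-05), and Dctn3, the other main shoulder subunit, 12.01 and 12.98 against 8.94 and 8.22 (log2 change 0.54, adjusted p = 0.000156). These 3 rises were the steady ones, and in each both positive arrays lay above both negative arrays.

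The pointed-end subunits Dctn5 and Dctn6 rose as deposited only. Dctn5 had 24.1 and 22.3 against 19.0 and 18.6 (log2 change 0.30, adjusted p = 0.0036), which was 0.09 and 0.10 after quantile and loess normalization. Dctn6 had 151 and 171 against 141 and 137 (log2 change 0.21, adjusted p = 0.0465), which turned to -0.06 and -0.07 and lost its call without any array except the first positive one. Dctn1, the large p150 subunit that binds microtubules and dynein, had 100 and 110 against 95.2 and 103 and did not pass (log2 change 0.08, adjusted p = 0.395), with groups that overlapped.

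In the membrane skeleton, Sptbn4, which encodes the beta-IV spectrin of axon initial segments and nodes of Ranvier, fell. It had 18.1 and 19.5 against 39.0 and 39.7, a 2.09-fold fall (adjusted p = 1.03e-06) under every scaling, while its dimmer probe had 1.79 and 1.68 against 1.54 and 1.55 and did not pass (log2 change 0.17, adjusted p = 0.165). Sptan1, the alpha-spectrin of neurons, had 307 and 303 against 268 and 265 (log2 change 0.20, adjusted p = 0.0361), which turned to -0.05 and -0.11 after quantile and loess normalization and lost its call without any 1 of the arrays. Sptbn1, the general beta-II spectrin of axons, had 488 and 593 against 488 and 529 and did not pass as deposited (adjusted p = 0.512), but fell after loess normalization (-0.24). The ankyrins Ank1 and Ank3, which tie spectrin to membrane proteins, were near the lowest level tested, with 0.585 and 0.656 against 0.590 and 0.736 for Ank1 and 0.891 and 0.840 against 1.002 and 0.874 for Ank3. Neither passed, with adjusted p-values of 0.734 and 0.545, and the groups overlapped.

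**Figure D3:**
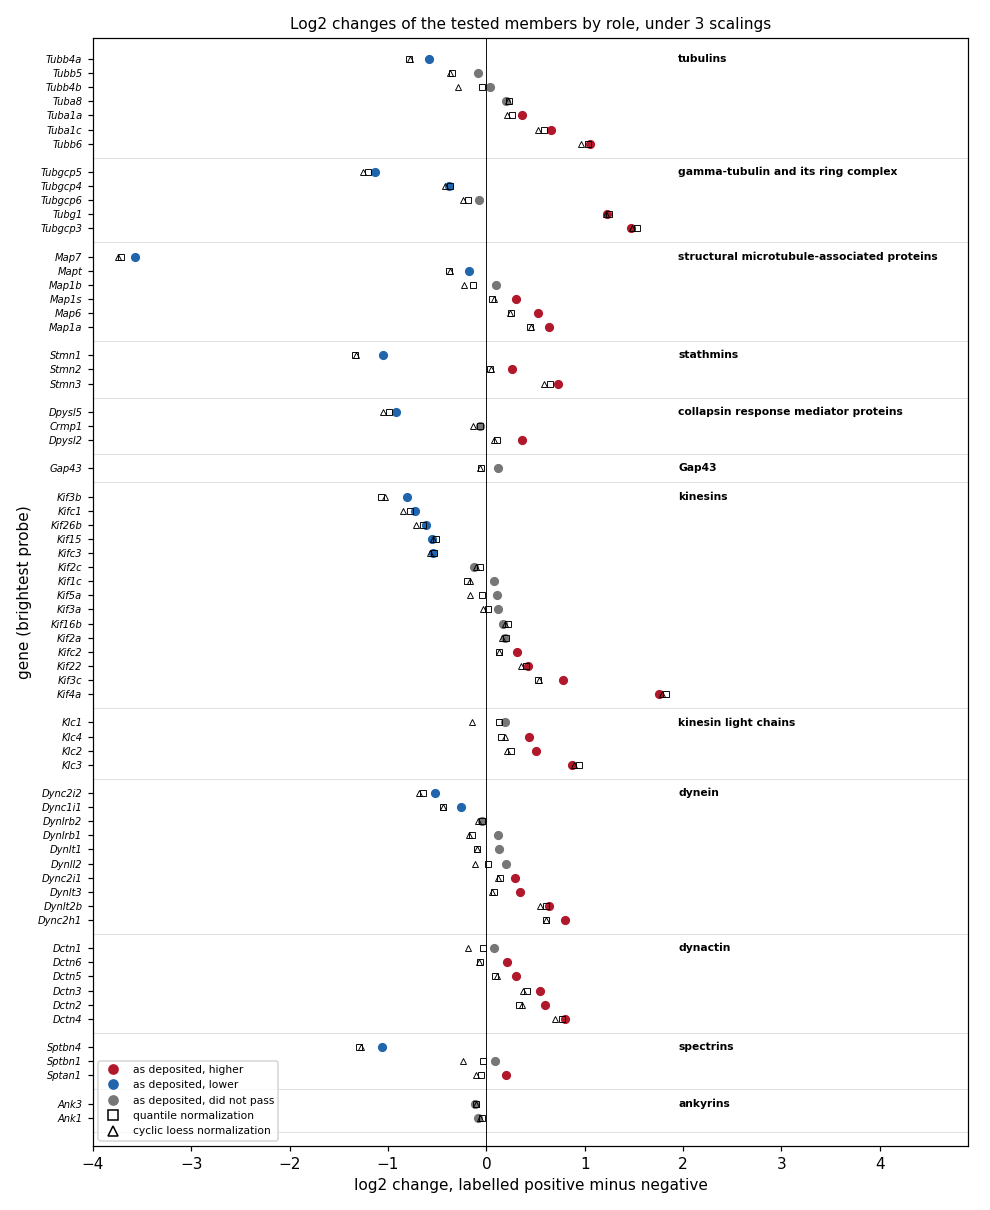
Log2 change (positive minus negative, horizontal axis) of each of the 65 tested members (vertical axis, grouped by role) as deposited (filled circles, coloured by call), after quantile normalization (squares) and after cyclic loess normalization (triangles). For the bright members the open symbols lie to the left of the circles, and 22 genes lie below 0 under all 3 scalings, 15 of them called lower under all 3.

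Probes of the same gene often gave changes of different size. Of 14 members with 2 tested probes, the probes of 11 moved in 1 direction, those of 6 had the same call, and none had probes called in opposite directions. Over the whole array 13.7% of 1371 genes with 2 to 6 tested probes had such opposite calls. Genes with more probes have more room for opposite calls, and 14 genes are few, so no better agreement of the members is read from this. In Map1b, Kif5a, Dynll2, Stmn2, Klc2 and Sptbn1 the dimmer probe rose and its log2 change was above that of the brighter one. The dimmer probe of Sptbn4, Kif2a and Tubb5 did not pass, but its log2 change was also above that of the brighter one. The rise of the dimmer Sptbn1 probe (0.25) became -0.03 under either normalization. Gap43, Map6, Map1a, Klc4 and Tubgcp6 went the other way, with the log2 change of the dimmer probe below that of the brighter one. Whether the brightest probes neared the upper limit of the scanner was not tested.

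**Figure D4:**
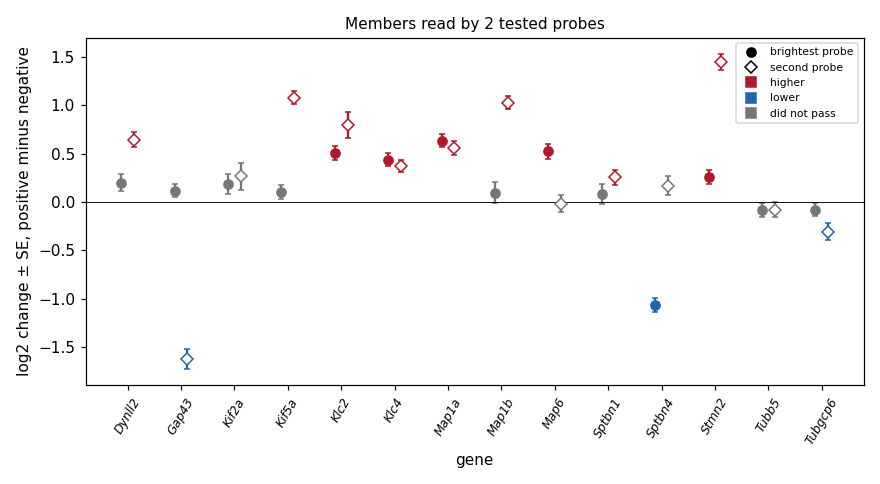
Log2 change ± SE (positive minus negative) of the brightest probe (filled circles) and the second probe (open diamonds) of the 14 members with 2 tested probes, coloured by call. Gap43, Sptbn4 and Stmn2 show the widest gaps between their probes.

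Genes that work with these members were read from 5 lists of microtubule end-binding, tubulin-modifying, tubulin-folding, motor-adaptor and initial-segment proteins. Of 42 tested, 22 rose and 8 fell as deposited, 13 and 9 after quantile and 11 and 10 after loess normalization, and 10 rises and 7 falls were steady. Of those tested, 52.4% rose and 19.0% fell as deposited, against 45.3% and 21.3% of all named genes, and 23.8% rose and 16.7% fell steadily, against 32.4% and 20.9%. Among 19 motor adaptors and regulators 7 rose and 5 fell as deposited, 3 and 5 after quantile and 4 and 7 after loess normalization. Trak1, which links mitochondria to kinesin-1, had 147 and 154 against 110 and 105 (log2 change 0.48, adjusted p = 0.000242), and its relative Trak2 had 8.88 and 7.89 against 13.1 and 13.9 (-0.69, adjusted p = 4.32e-05). Both calls were steady and in opposite directions. Nde1, a dynein regulator, rose (0.75) and Hap1, a huntingtin-associated adaptor, fell (-0.70), both steadily. Kifap3, the cargo-binding subunit of kinesin-2, did not pass (0.20, adjusted p = 0.0625).

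Of 6 microtubule end-binding genes 3 rose and none fell as deposited, 2 and 1 after quantile and 1 and 0 after loess normalization. Clasp1, a plus-end stabiliser, was the steady one (1.80 and 1.80 against 0.708 and 0.803, log2 change 1.25). Of 6 severing and tubulin-modifying genes 3 rose and 2 fell, with the deacetylase gene Hdac6 (0.55) and the deglutamylase gene Agtpbp1 (0.77) higher and the deacetylase gene Sirt2 (-0.43) and the severing gene Katna1 (-0.60) lower, all steadily. The tubulin-folding genes Tbcc (0.56) and Tbcd (0.35) both rose as deposited, and Tbcd lost its call after loess normalization (0.08). Of 9 initial-segment and membrane-skeleton partners 7 rose and 1 fell as deposited, 4 and 1 after quantile and 3 and 1 after loess normalization, with a median log2 change of 0.29, 0.05 and 0.05. Nfasc, the neurofascin of initial segments and nodes, had 12.2 and 12.1 against 9.10 and 8.85 (0.43, adjusted p = 0.000259, steady), in the opposite direction to the brighter Sptbn4 probe. Nrcam, the gene of this list that fell, had 2.15 and 2.28 against 2.58 and 2.65 (-0.24, adjusted p = 0.0301, steady), in the same direction as that probe. Add1, an adducin that caps actin in the spectrin lattice, was at 1.25 and 1.24 against 0.129 and 0.340, below the lowest level tested in the negative arrays.

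Markers of other cell types were read in the same arrays. In bulk samples fewer cells of a type and less RNA per cell cannot be told apart. Of all named genes, 45.3% rose and 21.3% fell as deposited. Of 8 neuron markers read, 7 were tested and Snap25 was dim. As deposited 5 rose (Stmn2 among them, which is also a member) and 1 (Elavl4) fell, with 2 rises and that fall steady. After either normalization 2 rose and 2 fell. The summed level of all 8 was 687 to 697 in the arrays labelled positive and 601 to 605 in those labelled negative. Most of it came from Thy1 (332 and 353 against 323 and 328) and Uchl1 (202 and 190 against 165 and 169). After quantile and loess normalization Thy1 was called lower (-0.19 and -0.24) and Uchl1 did not pass (-0.06 and -0.06). Of 6 tested central myelin markers 4 fell and none rose, with a summed level of 204 to 208 against 345 to 353 (Mag and Ermn dim). Schwann and satellite glia markers fell in 5 of 5 tests (112 to 122 against 220 to 235, Erbb3 dim), as did 4 of 5 astrocyte markers (127 to 140 against 251 to 252, Slc1a2 dim). S100b is on both of these lists, so its fall and its intensity count in each. Both tested endothelial and blood markers also fell (8.42 to 8.91 against 24.2 to 24.9, Kdr dim). Of 4 microglial and macrophage markers 1 fell and 2 rose (81.6 to 85.3 against 137 to 146), and of 3 tested ciliated and epithelial markers 2 rose and 1 fell (137 in both against 133 to 143, Epcam dim), with Krt8, one of the rises, below the lowest level tested in the negative arrays. Mog (log2 change -5.42), Mobp (-5.33), Gfap (-5.42) and Aqp4 all fell further than Map7, with Mog at 0.985 and 1.01 against 42.0 and 43.8. On the same lists Mbp (-3.11), S100b (-1.28), Ugt8 (-1.04) and Slc1a3 (-0.20) fell less far than Map7. Cldn11 (-0.07), Opalin (0.13) and Gja1 (-0.28) did not pass as deposited. The glial markers that fell and the 15 members that fell were each picked by direction, so their shared direction links nothing. Whether the cells that these markers stand for had a part in the falls of the members was not tested.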

How the data were processed

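The 4 columns of the deposited table hold probe intensities on a linear scale, processed by the authors; the sources used here do not say which scanner, background correction or normalization was used. Negative values (532 to 776 zero or negative values per array) and medians near 1 show that some correction and scaling preceded deposit. Entries of -9999 and values at or below the 1st percentile of an array's positive values were set to that percentile, and log2 was taken without further normalization.

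Names came from the platform annotation, with symbols checked by gene ID. IDs up to 144112 were read at their own row and IDs from 185001 at the value 5 table rows later; IDs between were not read. This was checked with 88 early and 90 late probes of abundant gene families, whose mean log2 level was 3.03 at their own row in the early part and, in the late part, 1.22 at their own row and 3.09 when moved.

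All 21070 probes whose mean log2 level reached the 40th percentile were tested in 1 fit with limma 3.58.1 in R 4.3.3 (lmFit, eBayes with trend, two-sided, Benjamini-Hochberg over all of them), which was tested on simulated data. A gene was represented by its brightest probe. Values are given, in each role class, at least for the 4 genes with the smallest p and the 2 with the brightest probe. Members and lists were chosen with earlier results of these data known. Alternatives were quantile and cyclic loess scaling, a replicate block, different filters, floors and variance models, means over probes, early names only and leaving out each array. The deviations of same-numbered arrays had a correlation of 0.000556, and the main fit had no replicate block. This correlation cannot show whether same-numbered arrays shared an animal or a hybridisation. Promoters came from RefSeq (GRCr8), and their orientation was checked by the position of TATAAA, most frequent from 30 bases before the start on both strands. Figures were drawn with matplotlib 3.10.9.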

Additional observations from a re-analysis of the deposited data

How the results depend on the processing

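With variances taken probe by probe, 24 members (16 higher, 8 lower; 2 of them higher by at least 2-fold), 13 genes of the related lists and 7082 probes were called. With names of the early part only, which leaves 37 tested members, 25 were called (17 higher, 8 lower, 2 of these lower by at least 2-fold). Quantile normalization called 18 members higher, and the median log2 change of the members, 0.17, became -0.0302 with it and -0.0723 with loess. With the filter at the 60th percentile, which leaves fewer members to test, 1 was called at least 2-fold higher. Of the 65 tested members 14 changed sign with quantile or loess, 9 of them called under none of the 3 scalings; Kif1c was called lower with both. Signs of values called on at least 1 side turned for Dctn6 (-0.0607 with quantile and -0.0723 with loess), Sptan1 (-0.0505 and -0.108), and, with loess, Sptbn1 (-0.242) and Tubb4b (-0.291). With early names Sptbn4 is read by its other probe (0.169). The cause was not tested, except where fewer members or another probe were read.

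With each array left out in turn, 37 to 41 members and 12262 to 12764 probes were called, on the assumption that the array left alone in its group has the spread of the other pair. Over the 49 genes named by rule and 14 settings, the call was the same in 583 of 632 values, 35 lost a call and 7 gained one with the direction kept, and 7 values, those of Dctn6, Sptan1, Sptbn1, Tubb4b and Sptbn4 above, turned with a call lost, gained or read from another probe. The replicate block called 44 members, with Dynll2 added, 33 genes of the related lists and 13711 probes. The counts by direction and size and those of the related lists were followed through the settings by a choice made after the data were seen.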
